A study of Mus musculus with 3 samples.

Results

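The CC chemokine ligands are small secreted proteins with adjacent cysteines near the amino terminus, and 10 of their genes were described in myeloid cells of the mouse colon. The members were taken by symbol (Ccl2, Ccl3, Ccl4, Ccl5, Ccl6, Ccl7, Ccl8, Ccl9, Ccl17 and Ccl22) from 24346 gene symbols per library, which held 24 CC ligand symbols in all. The cells came from the colon of healthy mice of the BALB/c strain, with no treatment named, and were sorted into CD64- dendritic cells (DC), CD64+ macrophages and a Gr-1+ CD11b+ fraction. The labels name the last neutrophils and monocytes, and it is called Gr-1+ cells below. CD64 is an IgG receptor of macrophages, CD11b is an integrin of myeloid cells, and Gr-1 is an epitope of Ly6 proteins on granulocytes and monocytes. The sources used here give no age or sex and do not say whether animals were pooled. Each population had 1 library, so differences between populations have no replicate check and no test was possible.

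Chemokines bind G protein-coupled receptors on leukocytes and draw them along a gradient. Ccl2, Ccl7 and Ccl8 belong to the monocyte chemoattractant group, whose receptor on monocytes is CCR2, although mouse CCL8 acts mainly on CCR8. CCL3, CCL4 and CCL5 are inflammatory chemokines that draw monocytes and T cells. CCL3 and CCL5 bind CCR1, as do the rodent chemokines CCL6 and CCL9. CCL17 and CCL22 share the receptor CCR4, which is found on regulatory and type 2 helper T cells. In the gut, monocytes that enter through CCR2 replenish the macrophages of the lamina propria.

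The 10 genes lie in 3 places of the mouse genome (GRCm38, GENCODE M21), all annotated as protein-coding. On chromosome 11, Ccl2 (82035571 to 82037453), Ccl7 (82045712 to 82047525) and Ccl8 (82115185 to 82116799), all on the plus strand, span 81.2 kb. Further along the same chromosome, Ccl5 (83525778 to 83530518), Ccl9 (83572919 to 83578636), Ccl6 (83587882 to 83593087) and Ccl3 (83647844 to 83649355), on the minus strand, and Ccl4 (83662584 to 83664683), on the plus strand, span 138.9 kb. Ccl22 (94745590 to 94751699) and Ccl17 (94810453 to 94812036), both on the plus strand, lie within 66.4 kb on chromosome 8. An antisense gene of unknown function, E230016K23Rik, overlaps Ccl6 and was at 0.86 FPKM in DC, 3.77 FPKM in macrophages and 6.57 FPKM in Gr-1+ cells. Another antisense gene, Gm17268, overlaps Ccl2 and was not analysed here. No source used here states that strand was recorded, so fragments from these antisense genes could be counted with Ccl6 and Ccl2.

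Values are FPKM, that is, fragments scaled by transcript length and by library total. Judged by the steps between low values, the library of Gr-1+ cells was the shallowest, and those of DC and macrophages were about 3.69 and 2.68 times as deep. Over 1426 olfactory and vomeronasal receptor genes, which myeloid cells should not use, the 95th percentile reached 0.61 FPKM in DC, 3.22 FPKM in macrophages and 9.65 FPKM in Gr-1+ cells, and is called the silent-gene level. In comparisons of libraries a size rule was used. A gene counted as higher when its log2(FPKM + 1) exceeded that of the other library by at least 2 and its level was at least 10 FPKM. In DC and macrophages all 10 members exceeded the silent-gene level, and in Gr-1+ cells 9 did. Macrophage markers followed the CD64 gate, with a summed level over 10 genes of 842 FPKM in DC, 8772 FPKM in macrophages and 836 FPKM in Gr-1+ cells. Neutrophil markers summed to 1689, 4358 and 169430 FPKM in the same order over 11 genes, and dendritic cell markers to 389, 198 and 39.6 over 10. Of the DC sum, 203 FPKM came from Cd209a, and without it the sums were 187, 93.5 and 26.9 FPKM. Xcr1 and Clec9a, markers of type 1 conventional DC, were at only 2.83 and 2.81 FPKM in the DC library. Xcr1 was highest in Gr-1+ cells, at 4.18 FPKM, and Batf3 in macrophages, at 42.1 FPKM against 20.6 in DC. The 7 B and plasma cell markers summed to 22526, 1158 and 429 FPKM, so transcripts typical of those cells were present in the DC library. Of all these markers, only the granule gene Camp was listed at 0, in DC and macrophages.

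The ligands fell into 3 patterns. The group of Ccl2, Ccl7 and Ccl8, together with Ccl5 and Ccl9, was highest in macrophages and lower in both other libraries. Ccl3, Ccl4 and Ccl6 were at similar levels in macrophages and Gr-1+ cells and lower in DC. Ccl17 and Ccl22 were highest in DC. Together the 10 genes summed to 8231 FPKM in macrophages, 4279 FPKM in Gr-1+ cells and 1664 FPKM in DC, which was 0.941%, 0.495% and 0.249% of the FPKM sum of each library.

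**Figure D1:**
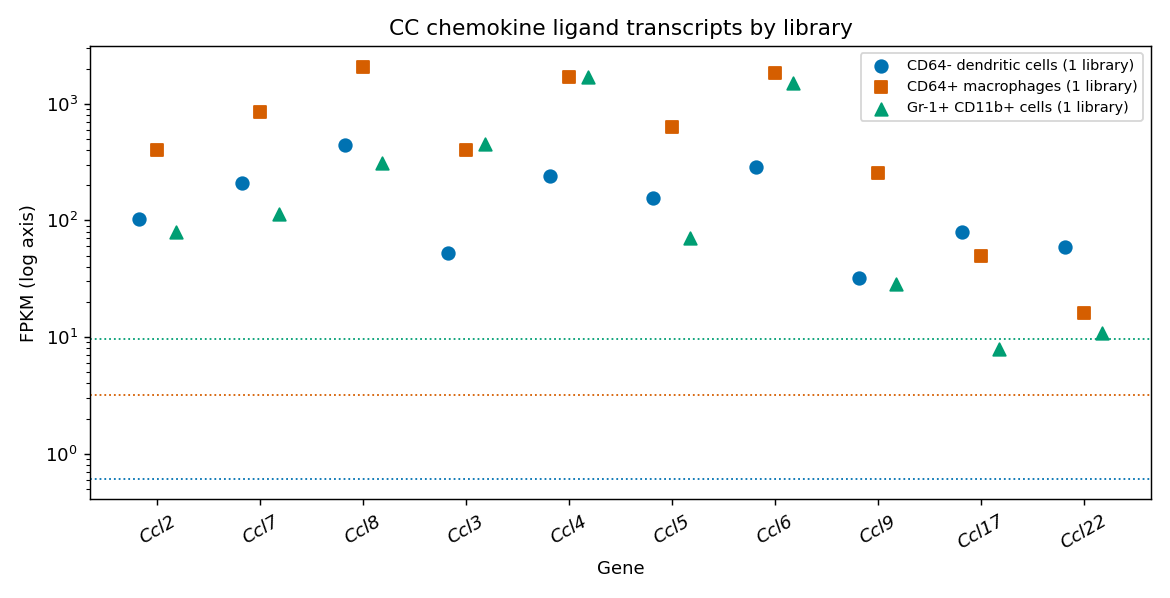
FPKM (log axis) of the 10 ligand genes in the 3 libraries, 1 point per library, ordered by role. Dotted lines mark the silent-gene level of each library in its colour, and Ccl17 in Gr-1+ cells, at 7.89 FPKM, is the one point under the line of its own library.

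Among the monocyte chemoattractants, Ccl8 was the highest, at 2086 FPKM in macrophages, 445 FPKM in DC and 311 FPKM in Gr-1+ cells. For Ccl7 the levels in these libraries were 848, 211 and 113 FPKM. Ccl2, the main ligand of CCR2, was at 401, 103 and 79.9 FPKM. The macrophage level of these genes was thus 3.87 to 4.68 times that of DC, and 5.01 to 7.53 times that of Gr-1+ cells. DC and Gr-1+ cells differed less, by 1.29 times for Ccl2, 1.43 for Ccl8 and 1.87 for Ccl7, each higher in DC. The order of these latter libraries was not stable for Ccl2 and Ccl8, which were higher in Gr-1+ cells than in DC with median-ratio or 75th percentile scaling. The summed level of 7 monocyte markers was also highest in macrophages, at 3541 FPKM against 1545 in DC and 1164 in Gr-1+ cells, although Ly6c2 was highest in DC. Stromal and endothelial cells can make these chemokines too, and the sum over 6 markers of those cells was lowest in macrophages, at 175 FPKM against 316 in DC and 291 in Gr-1+ cells. Of these, Pecam1 was lower still in Gr-1+ cells. The 5 epithelial markers were also lowest in macrophages, with sums of 207 against 328 and 684. Markers of mast cells, basophils and eosinophils summed to 121 FPKM in DC, against 24.4 in macrophages, with Gr-1+ cells at 43.4, over 10 genes, with Epx listed at 0 throughout. Most of the DC sum came from Prg2, at 108 FPKM, and without it the sums were 12.9, 18.1 and 39.6 FPKM, lowest in DC. The part of each cell type in the ligand levels was not tested.

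Ccl5 and Ccl9 had the same order as deposited, although with median-ratio or 75th percentile scaling Ccl9 was higher in Gr-1+ cells than in DC. Ccl5, which attracts T cells and monocytes and is also made by T and NK cells, was at 634 FPKM in macrophages, 156 FPKM in DC and 71.0 FPKM in Gr-1+ cells. T and NK cell markers did not share this order, since their summed level over 16 genes was highest in DC, at 416 FPKM against 135 in macrophages and 71.3 in Gr-1+ cells. Of these 16 markers, 15 exceeded the silent-gene level in DC, with Cd2 at 163 FPKM and Klrd1 at 65.2, and none was listed at 0 in any library. The part of lymphocytes in the Ccl5 level was not tested. Ccl9, a ligand of CCR1, was at 256 FPKM in macrophages, 32.4 FPKM in DC and 28.8 FPKM in Gr-1+ cells, so its macrophage level was 7.92 and 8.90 times that of the other libraries.

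Ccl3, Ccl4 and Ccl6 had similar levels in Gr-1+ cells and macrophages. Ccl4, which attracts monocytes and T cells, was at 1698 FPKM in Gr-1+ cells, 1700 FPKM in macrophages and 238 FPKM in DC. Ccl3, which attracts neutrophils and monocytes through CCR1, was at 456, 399 and 53.0 FPKM. Ccl6 was at 1503, 1842 and 286 FPKM. The ratio of Gr-1+ cells to macrophages was thus 1.14 for Ccl3, 0.999 for Ccl4 and 0.816 for Ccl6, and which of these libraries was higher turned with the scaling for Ccl4 and Ccl6. All were lower in DC under every scaling tried.

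The CCR4 ligands were the only members highest in DC, as deposited and under each of the 3 scalings. Ccl17 was at 79.8 FPKM in DC, 49.6 FPKM in macrophages and 7.89 FPKM in Gr-1+ cells. Ccl22 was at 59.3, 16.1 and 10.9 FPKM. The DC level was thus 1.61 times the macrophage level for Ccl17 and 3.67 times for Ccl22, and 10.1 and 5.46 times the Gr-1+ level. On the 514 bases of the Ccl17 transcript, 7.89 FPKM corresponds to at most about 9 fragments, with an exact Poisson 95% interval of 4.12 to 17.1 that covers counting error only. The same estimate for DC was 328 fragments. The Ccl17 level in Gr-1+ cells lay under the silent-gene level of that library, so its expression there could not be told from background. The Ccl22 level there corresponds to at most about 52 fragments, with an interval of 38.8 to 68.2. At 10.9 FPKM it lay just above the silent-gene level of 9.65 FPKM, and was thus close to background.

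Some markers of other cell types were, like the CCR4 ligands, higher in DC than in macrophages, although neither ligand passed the size rule there. Of 10 genes listed as markers of migratory DC, 2 passed the size rule towards DC over macrophages, Ccr7 and Il4i1, at 1004 and 111 FPKM in DC against 107 and 12.4, where 1.53% of all genes did. The list did not move as a whole, since 7 of its genes had a higher level in DC than in macrophages and 3 a lower one, Cd83 (1173 against 1684 FPKM), Cd40 (78.4 against 238) and Relb (109 against 115). The DC level of the 7 B and plasma cell markers was 13.6 to 44.6 times the macrophage level. Levels were also higher in DC for 15 of 16 T and NK cell markers and 8 of 10 dendritic cell markers. The same held for all 6 stromal and endothelial markers and all 5 epithelial markers. It held for 3 of 10 markers of mast cells, basophils and eosinophils, 1 of 11 of neutrophils, 1 of 7 of monocytes and 0 of 10 of macrophages. The part of each of these cell types in the Ccl17 and Ccl22 levels was not tested.

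The stretch before the annotated start was available from RefSeq (GRCm38.p6) for 6 of the 10 genes, Ccl3, Ccl6, Ccl8, Ccl9, Ccl17 and Ccl22. Up to 160 bases before the start are shown for 5 of these, chosen to set the DC-high pair beside members of the other patterns, 5′ to 3′ on the strand of the gene, with motif matches in capitals. The windows are chr8:94810293-94810452 (plus strand) for Ccl17, chr8:94745434-94745589 (plus) for Ccl22, chr11:82115025-82115184 (plus) for Ccl8, chr11:83578637-83578796 (minus) for Ccl9 and chr11:83649379-83649538 (minus) for Ccl3. For Ccl22 the RefSeq start, at 94745684, lies 94 bases inside the GENCODE gene, and the window shown ends before the GENCODE start.
Ccl17: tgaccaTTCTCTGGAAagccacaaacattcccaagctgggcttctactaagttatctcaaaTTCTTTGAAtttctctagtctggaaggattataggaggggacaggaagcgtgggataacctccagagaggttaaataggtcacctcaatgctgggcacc
Ccl22: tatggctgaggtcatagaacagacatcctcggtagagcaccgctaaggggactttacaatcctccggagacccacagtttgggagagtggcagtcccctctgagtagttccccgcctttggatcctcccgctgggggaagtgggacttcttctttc
Ccl8: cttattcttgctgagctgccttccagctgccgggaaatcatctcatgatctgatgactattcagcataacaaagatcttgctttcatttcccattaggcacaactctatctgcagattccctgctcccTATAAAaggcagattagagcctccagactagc
Ccl9: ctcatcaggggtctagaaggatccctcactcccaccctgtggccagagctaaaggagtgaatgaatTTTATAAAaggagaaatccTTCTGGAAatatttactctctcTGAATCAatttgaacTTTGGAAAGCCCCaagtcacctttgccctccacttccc
Ccl3: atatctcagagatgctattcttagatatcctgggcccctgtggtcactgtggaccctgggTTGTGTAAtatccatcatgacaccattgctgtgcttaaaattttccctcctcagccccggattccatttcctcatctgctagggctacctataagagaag

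In all, 6 motifs were searched on both strands over 250 bases before the RefSeq start. Ccl17 held the STAT motif TTCNNNGAA at -99 to -91, counted back from the start, and the same outer letters spaced by 4 bases, the form bound by STAT6, at -154 to -145. These occurred in 7.02% and 5.85% of all 32851 promoter windows of that length. Ccl9 held an NF-kB motif at -35 to -26, found in 3.90% of all windows, which overlaps a C/EBP motif (TTNNGNAA) at -38 to -31, found in 36.9%. Ccl9 also held a second C/EBP motif at -75 to -68 and an AP-1 motif (TGANTCA) at -53 to -47, found in 6.75%. Ccl3 held a C/EBP motif at -100 to -93. Ccl8 held the TATA box letters TATAAA at -32 to -27, as 12.4% of windows did at any position, and Ccl9 held them at -92 to -87 and, read on the opposite strand, at -94 to -89 and -224 to -219. Ccl22 and Ccl6 held none of the searched letters in these windows. A match describes the letters only, and no binding was measured.

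The first comparison, of DC with macrophages, asks how these antigen-presenting populations differ in the chemokines they make. By the size rule 7 of the 10 ligands were higher in macrophages (Ccl3, Ccl4, Ccl5, Ccl6, Ccl7, Ccl8 and Ccl9), where 2.31% of the 17329 genes compared were. None of the 10 was higher in DC, where 1.53% of all genes were. The median difference of the members (DC minus macrophages) was -2.12, and that of all genes compared was -0.05. The differences were -2.95 for Ccl9, -2.89 for Ccl3, -2.83 for Ccl4 and -2.68 for Ccl6, and those of Ccl8, Ccl5, Ccl7 and Ccl2 were closer to the limit, at -2.23, -2.02, -2.00 and -1.94. When all libraries were scaled to equal sums, 4 members were higher in macrophages (Ccl3, Ccl4, Ccl6 and Ccl9), where 1.52% of all genes were, and 1, Ccl22, was higher in DC, where 2.40% were. With a pseudocount of 10, Ccl5 and Ccl7 no longer passed, both at -1.96, and 5 members did, where 1.07% of all genes were higher in macrophages. As deposited, the differences of Ccl22 and Ccl17 were 1.81 and 0.68.

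**Figure D2:**
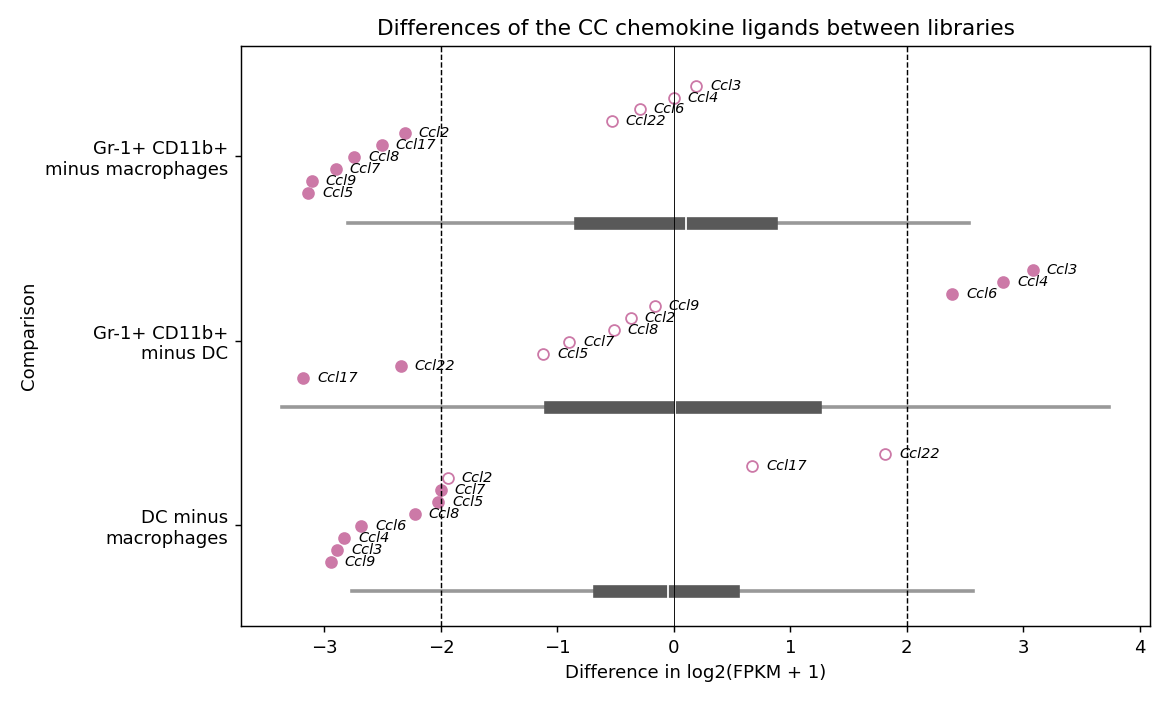
Difference in log2(FPKM + 1) of each ligand (points) in the 3 comparisons, with filled points for those past the size rule and dashed lines at a difference of 2 in either direction. Grey bars give all 17329 genes compared (thin bar, percentiles 1 to 99; thick bar, 25 to 75; white tick, median), and in DC minus macrophages 8 ligands lie at -1.94 or lower.

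Macrophage markers were also lower in DC than in macrophages. The 8 ligands lower in DC stood at 0.126 to 0.258 of their macrophage level in the DC library. Of these, Ccl3, Ccl4, Ccl6 and Ccl9 stood at 0.126 to 0.155, and Ccl2, Ccl5, Ccl7 and Ccl8 at 0.213 to 0.258. The 10 macrophage markers stood at 0.0817 to 0.273, with a median of 0.108 that lay under the lowest ligand. Among the markers, C1qb was at 393 FPKM in DC against 4403 in macrophages and C1qc at 225 against 2212. None of these markers was listed at 0. The part of macrophage RNA in the ligand levels of the DC library was not tested, and in sorted bulk cells fewer cells of a type and less RNA per cell cannot be told apart.

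The second comparison set Gr-1+ cells against DC and split the family in both directions. By the size rule 3 of 10 ligands were higher in Gr-1+ cells, Ccl3, Ccl4 and Ccl6, with differences of 3.08, 2.83 and 2.39, where 3.65% of all genes compared were higher. Both CCR4 ligands were lower, Ccl17 by -3.18 and Ccl22 by -2.35, where 6.28% of all genes were. The other 5 differed by -0.16 (Ccl9) to -1.12 (Ccl5) and did not pass. The member median was -0.44 and that of all genes 0.01. With median-ratio scaling the difference of Ccl22 was -1.61 and Ccl17 was the 1 member that passed in this direction, where 2.04% of all genes did. Neutrophil markers moved with Ccl3, Ccl4 and Ccl6 in this comparison, all 11 being higher in Gr-1+ cells than in DC. They did not do so against macrophages, where all 11 were again higher in Gr-1+ cells but these ligands were at similar levels. The part of neutrophils and of monocytes in the levels of Ccl3, Ccl4 and Ccl6 was not tested.

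The third comparison set Gr-1+ cells against macrophages. Of the 10 ligands, 6 were higher in macrophages by the size rule (Ccl2, Ccl5, Ccl7, Ccl8, Ccl9 and Ccl17), where 3.41% of all genes compared were, and none was higher in Gr-1+ cells, where 1.41% were. The differences were -3.14 for Ccl5, -3.11 for Ccl9, -2.90 for Ccl7, -2.74 for Ccl8, -2.51 for Ccl17 and -2.31 for Ccl2. Those of Ccl3, Ccl4, Ccl6 and Ccl22 were 0.19, 0.00, -0.29 and -0.53. The member median was -2.41 and that of all genes 0.10. With median-ratio or 75th percentile scaling, Ccl2 and Ccl17 no longer passed and 4 members did, where 1.44% or 1.39% of all genes passed. The macrophage levels enter this comparison and the first, and the Gr-1+ levels this one and the second, so the 3 sets of calls are not independent. In the Gr-1+ library, Ccl2, Ccl5, Ccl7, Ccl8 and Ccl9 stood at 0.112 to 0.199 of their macrophage level. The 10 macrophage markers stood at 0.0764 to 0.279, with a median of 0.105. For Ccl3, Ccl4 and Ccl6 the share was 0.816 to 1.14. By contrast, all 11 neutrophil markers passed the size rule towards Gr-1+ cells, where 1.41% of all genes did. Where their macrophage level was above 0, they stood at 13.2 to 57.1 times that level.

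The make-up of the ligand transcripts does not depend on how libraries are scaled, since it is taken within a library. Ccl2, Ccl7 and Ccl8 made up 45.6% of the summed FPKM of the 10 genes in DC and 40.5% in macrophages, and 11.8% in Gr-1+ cells. Ccl4 and Ccl6 alone made up 39.7% and 35.1% in Gr-1+ cells, against 20.7% and 22.4% in macrophages and 14.3% and 17.2% in DC. The CCR4 ligands held 8.36% in DC, but 0.799% and 0.438% in macrophages and Gr-1+ cells.

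**Figure D3:**
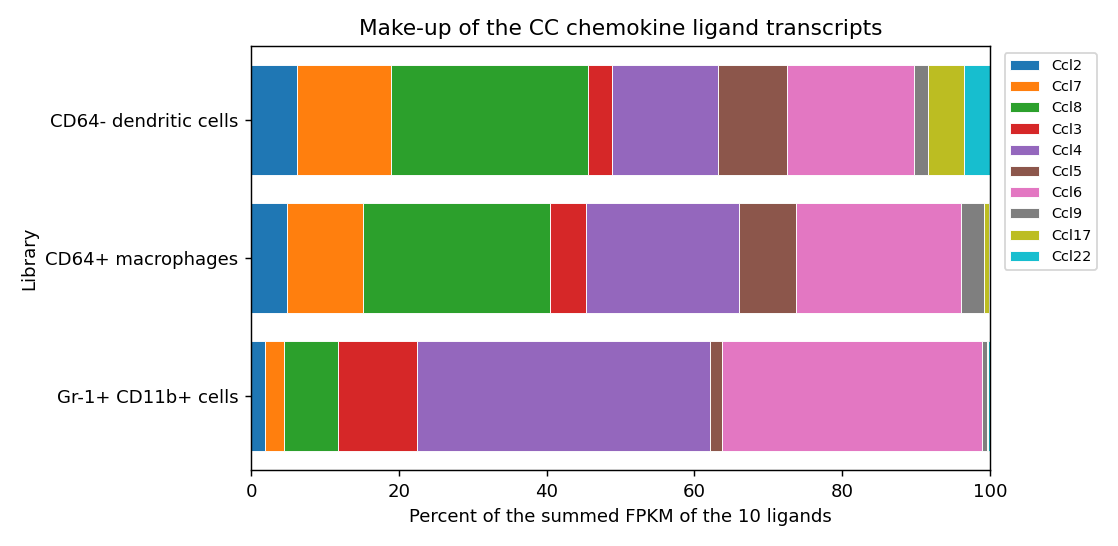
Share of each ligand in the summed FPKM of the 10 genes, 1 bar per library adding to 100%. Ccl4 and Ccl6 fill most of the Gr-1+ bar (39.7% and 35.1%), and Ccl17 with Ccl22 can be seen mainly in the DC bar (8.36%).

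Ratios between members within a library show which genes kept step. Of 45 pairs, Ccl5 to Ccl7 varied least over the libraries, with a ratio of 0.630 in Gr-1+ cells, 0.747 in macrophages and 0.737 in DC. Ccl3 to Ccl4, neighbours 13228 bases apart, came next, at 0.269, 0.235 and 0.222. Ccl7 to Ccl8 followed, at 0.362, 0.407 and 0.474. Neighbouring position did not always go with a steady ratio. Ccl6 and Ccl9, which lie 9245 bases apart, had a ratio of 52.2 in Gr-1+ cells, 7.19 in macrophages and 8.84 in DC. Ccl17 to Ccl22 was at 0.727, 3.07 and 1.35 in the same order, the first resting on the low values of the Gr-1+ library. The pair that varied most was Ccl3 to Ccl17, at 57.8, 8.05 and 0.664.

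Of the other 14 CC ligand symbols, 10 reached 1 FPKM in any library. Ccl12, a further CCR2 ligand of the mouse, was at 253 FPKM in macrophages, 31.9 FPKM in DC and 30.6 FPKM in Gr-1+ cells, and passed the size rule against both other libraries. Its ratio to Ccl9 was 1.06 in Gr-1+ cells, 0.988 in macrophages and 0.984 in DC. Ccl24, which attracts eosinophils through CCR3, was at 32.5 FPKM in macrophages, 5.43 FPKM in DC and 9.90 FPKM in Gr-1+ cells, and passed the rule against DC. Ccl11, another eosinophil attractant, was at 24.9 to 34.0 FPKM in all libraries and passed in no comparison. Ccl21a, a CCR7 ligand of lymphatic and stromal cells, was at 18.1 FPKM in DC, 13.4 FPKM in macrophages and 0.0146 FPKM in Gr-1+ cells. Ccl21a has near-identical copies, of which Ccl21b and Ccl21c were listed at 0 in every library, so its values are uncertain. Ccl26 and Ccl27b were also listed at 0 throughout.

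The receptors of the ligands were also compared. Of 14 CC receptor and atypical receptor genes, 3 lay past the size rule towards macrophages over DC (Ccr1, Ccr2 and Ccrl2), where 2.31% of all genes did, and 4 towards DC (Ccr6, Ccr7, Ccr10 and Ackr1), where 1.53% did. Ccr1, the receptor gene for CCL3, CCL5, CCL6 and CCL9, was at 548 FPKM in Gr-1+ cells, 339 FPKM in macrophages and 43.2 FPKM in DC. Ccr2, which brings monocytes out of the marrow, was at 247 FPKM in macrophages, 27.6 FPKM in DC and 25.8 FPKM in Gr-1+ cells. Against DC, 2 receptors were higher in Gr-1+ cells (Ccr1 and Ccrl2), as 3.65% of all genes were, and 4 were lower (Ccr6, Ccr7, Ccr10 and Ackr1), as 6.28% were. Against macrophages 1 was lower there, Ccr2, as 3.41% of all genes were. Ccrl2, a non-signalling receptor that binds chemerin, was at 1930 FPKM in Gr-1+ cells, 1380 FPKM in macrophages and 148 FPKM in DC.

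**Figure D4:**
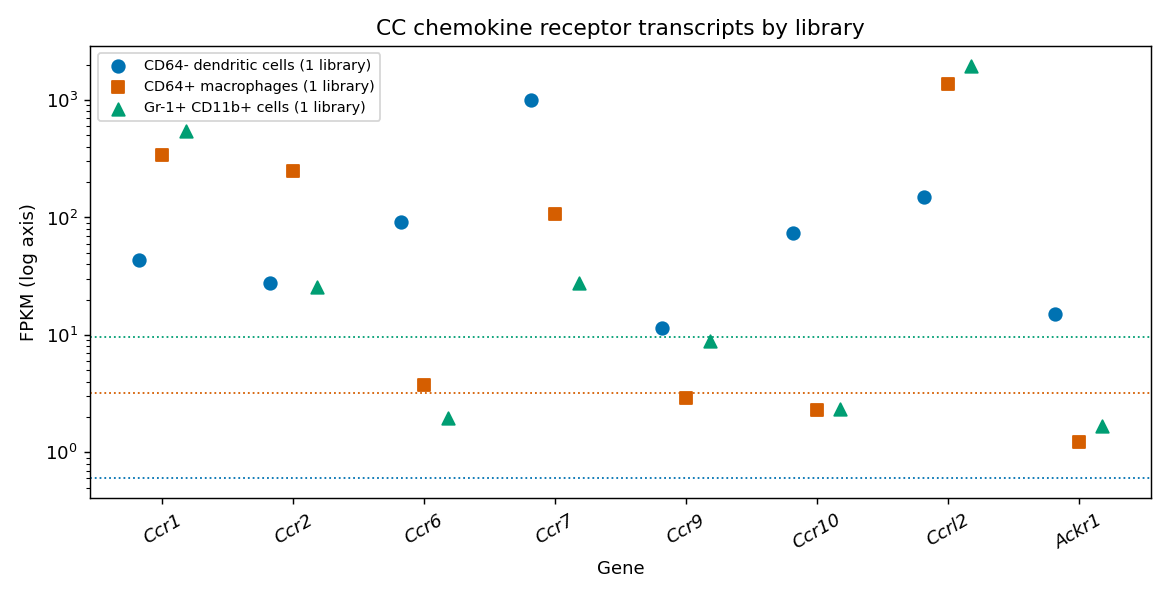
FPKM (log axis) of the 8 CC receptor and atypical receptor genes shown, each of which reached 10 FPKM in any library, 1 point per library, with dotted lines at the silent-gene level of each library. Ccr1 and Ccrl2 are high in macrophages and Gr-1+ cells, Ccr2 in macrophages, and Ccr6, Ccr7, Ccr10 and Ackr1 in DC.

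As deposited, Ccr6, Ccr8, Ccr9, Ccr10 and Ackr1 were highest in DC, as were Ccr7 and, at 3.14 FPKM or less, Ackr2 and Ackr4. Ccr6, a receptor of B cells and some T cells, was at 92.1 FPKM in DC, 3.75 FPKM in macrophages and 1.95 FPKM in Gr-1+ cells. Ccr10, a receptor of plasma cells that make IgA, was at 74.3, 2.31 and 2.35 FPKM. Ackr1, an atypical receptor of red cells and venules that binds several CC ligands, was at 15.2, 1.23 and 1.67, and Ccr9, a gut-homing receptor, at 11.4, 2.91 and 8.82. Ccr4, the receptor gene for CCL17 and CCL22, was at 1.71 FPKM in DC, 0.62 FPKM in macrophages and 2.30 FPKM in Gr-1+ cells. It was thus highest in Gr-1+ cells, but exceeded the silent-gene level in DC alone. Ccr8, a receptor of CCL8, was at 6.55, 3.25 and 3.77 FPKM. Ccr3, Ccr1l1, Ackr2 and Ackr4 were at 7.91 FPKM or less in every library.

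Of 13 genes for factors that act on chemokine transcripts or proteins, 3 passed the size rule in any comparison. Against macrophages 1 was higher in DC, where 1.53% of all genes were. In Gr-1+ cells 3 were lower than in DC, where 6.28% of all genes were, and 1 was lower than in macrophages, where 3.41% were. None passed the other way in these comparisons, where 2.31%, 3.65% and 1.41% of all genes did. Irf4, a transcription factor of DC and plasma cells, was higher in DC than in both others, at 25.5 FPKM against 4.89 in macrophages and 1.85 in Gr-1+ cells. Irf8, a factor of DC and monocyte development, was at 190 FPKM in DC, 145 FPKM in macrophages and 27.6 FPKM in Gr-1+ cells, where it was lower than in both. Dpp4, a protease that trims several chemokines, was at 22.4, 8.31 and 3.20 FPKM and was lower in Gr-1+ cells than in DC. The 5 NF-kB subunit genes, the inhibitor gene Nfkbia, Stat6 and the RNA-decay genes Zfp36, Zfp36l1 and Zfp36l2 did not pass in any comparison. Nfkbia was at 2622 FPKM in macrophages, 3141 FPKM in Gr-1+ cells and 874 FPKM in DC.

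For each ligand the gene with the most similar levels was sought among 15444 genes, by Euclidean distance of log2(FPKM + 1) over the 3 libraries. The closest match was Ccl12 for Ccl9, at a distance of 0.09. Ccl2 was nearest to Hexa (0.21), Ccl5 to Lgmn (0.26) and Ccl7 to Lamp1 (0.24). Ccl3 was nearest to its receptor gene Ccr1 (0.46), Ccl4 to Prdx5 (0.44), Ccl6 to Plaur (0.47) and Ccl8 to Lyz1 (0.68). Ccl17 was nearest to Dohh (0.36) and Ccl22 to Elf1 (0.29). With 3 libraries many genes lie close, 220 within a distance of 1 of Ccl22 and 111 of Ccl17, against 4 for each of Ccl4, Ccl6 and Ccl8.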

How the data were processed

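RNA of 3 sorted populations was measured, with 1 library each. Per the labels' protocols, RNA was extracted with RNeasy, cDNA made with SMART-Seq HT and libraries with Nextera. For each library the authors deposited a table of gene symbols with their FPKM. Neither the file headers nor the labels name a unit. The values are read as FPKM because Cufflinks is among the tools and low values times transcript length rise in steps of single fragments. Per the submitters' processing notes the tools were Cufflinks 2.2.1, TopHat2 2.0.13, SAMtools 0.1.19 and Bowtie2 2.2.3 and the build was mm10, with no order or role. The sources used here give no annotation, filters or strand. An FPKM value falls when a few other transcripts dominate: the 10 highest genes held 33.5% of the sum in Gr-1+ cells, 22.2% in macrophages and 15.0% in DC. The members' longest transcripts measure 511 to 3006 nt, and the length correction of short transcripts can shift levels between genes.

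Levels are the deposited ones, and 1 was added as a pseudocount before log2. Differences are on that scale, which understates those of low genes. Comparisons covered the 17329 genes that reached 1 FPKM somewhere. Depth came from FPKM steps of single-transcript genes over 800 nt. Of low values in DC, macrophages and Gr-1+ cells, 76.6%, 71.0% and 72.5% lay within 0.2 of a whole multiple (about 40% by chance for a step fixed in advance). Each step was chosen for the best alignment of these same values, so the shares are not a test of the steps. On a 1 kb transcript, 1 fragment was worth 0.125, 0.172 and 0.461 FPKM. Amplified fragments are not independent molecules.

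The members and lists were chosen with earlier results of these data known, and the silent-gene level was first chosen after values were seen. Named were all members, other CC ligands and receptors at 10 FPKM or past the size rule, regulators past it, up to 2 of the highest markers per list and the nearest gene of each member. Named outside that rule, after their values were seen, were genes listed at 0 (Camp, Epx, Ccl26, Ccl27b and the Ccl21a copies), regulators that did not pass, the antisense genes, and Ccr3, Ccr4, Ccr8, Ccr1l1, Ackr2, Ackr4, Il4i1, Cd40, Relb, Xcr1, Clec9a, Batf3 and Pecam1. Besides the genes counted, a receptor gene and a monocyte marker of the lists are not reported here. Simulated data were used to test the size rule. They were drawn from the DC levels with counting error only, without the raised silent-gene level of Gr-1+ cells or amplification. They therefore do not show how the rule behaves in these libraries. Alternatives were other pseudocounts, floors and log2 limits, 3 scalings and subtraction of silent-gene levels. Python 3.11.15, NumPy 2.4.6, pandas 2.3.3 and matplotlib 3.10.9 were used.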

Additional observations from a re-analysis of the deposited data

How the results depend on the processing

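No paired analysis was possible because each population had 1 library, and no library could be left out. Of 330 member differences under the alternatives, 0 changed direction after passing the size rule, 27 no longer passed and 8 newly passed. A new pseudocount, floor or limit cannot change a direction, and differences that had not passed were left out of that count, so the 0 says little about stability. With median-ratio or 75th percentile scaling, differences that had not passed did turn. These were Ccl2, Ccl8 and Ccl9 for Gr-1+ cells minus DC, and Ccl4, Ccl6 and Ccl22 for Gr-1+ cells minus macrophages. With equal sums Ccl4 turned as well in Gr-1+ cells minus macrophages, from -0.0017 to 0.0166. For DC against macrophages, ligands higher in macrophages numbered 7 as deposited, 4 with equal sums, 5 with a pseudocount of 10, 8 (with Ccl2) with a limit of 1, median-ratio or 75th percentile scaling (5.69%, 2.61% and 2.51% of all genes) and 0 with a log2 limit of 3 (0.652%). Those higher in DC numbered 0 as deposited and 1 (Ccl22) with equal sums, with a limit of 1, or with the 95th percentile of silent genes subtracted (2.40%, 5.59% and 3.17%). For Gr-1+ cells against DC, ligands higher in Gr-1+ cells went from 3 to 1 (Ccl3) with a limit of 3 (2.07%). Those higher in DC went from 2 to 1 (Ccl17) with a pseudocount of 10, a limit of 3, median-ratio or 75th percentile scaling (1.78%, 1.38%, 2.04% and 2.10%), and to 3 (with Ccl5) with a limit of 1 (18.6%). For Gr-1+ cells against macrophages, ligands higher in macrophages went from 6 to 2 (Ccl5 and Ccl9) with a limit of 3 (0.716%), to 5 (without Ccl17) with a pseudocount of 10 (1.26%), to 7 (with Ccl22) with the 95th percentile of silent genes subtracted (12.5%), and to 4 under 75th percentile or median-ratio scaling. There, CC receptors higher in Gr-1+ cells went from 0 to 1 (Ccr1l1) under these same scalings, 3.64% and 3.56% of all genes for the former and the latter. Stricter limits lower counts by construction, and otherwise the cause was not tested. Median-ratio scaling moved the median of all genes from 0.01 to 0.63 (Gr-1+ cells minus DC) and from 0.10 to 0.53 (minus macrophages), and equal sums moved DC minus macrophages from -0.05 to 0.20. The Ccl17 value in Gr-1+ cells, the shallowest library, rests on at most about 9 fragments and lay under the silent-gene level. The part of depth in such values was not tested.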
